A study of Mus musculus with 6 samples.

Results

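The beta-defensin genes of the mouse were followed in skin wounds of wild-type (WT) and FoxO1 +/- animals. Members were all array probes that are not controls and whose RefSeq accession matches a gene symbol made of Defb and a number. This gave 46 probes for 42 genes, out of 55681 distinct probes and 20145 named genes on the array, and it covered all 42 genes so named in the reference table. The genes lie on chromosome 8 (24 genes), chromosome 2 (11), chromosome 14 (5) and chromosome 1 (2). A total of 4 genes have more than 1 probe.

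Beta-defensins are short cationic peptides, secreted mainly by epithelia and folded by a fixed pattern of cysteine bridges. They damage microbial membranes, and several of them attract immune cells through the chemokine receptor CCR6. In skin they are made by keratinocytes, some constantly and others after injury, infection or cytokines such as interleukin-1, interleukin-17 and interleukin-22. Most of the other family members are known from the male reproductive tract, above all the epididymis, where some coat maturing sperm.

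The samples were 3 WT and 3 FoxO1 +/- male mice, all of the strain labelled C57/BL6, and the comparison asks how loss of 1 copy of the forkhead factor gene Foxo1 bears on gene expression in the wound. Each mouse received 4 full-thickness wounds made with a 4 mm punch, and all samples are wound tissue taken on day 3 with a 6 mm punch, so the tissue includes a rim of skin around the wound. No unwounded skin was analysed here, and neither the animals' age nor the kind of Foxo1 allele is stated in the labels. Each sample was hybridised to 1 single-colour Agilent array and is taken as 1 animal by its number, and the p-values describe only how these 6 arrays vary. Because the tissue is a mixture of cells, fewer cells of a type and less RNA per cell cannot be told apart.

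Across all probes, 69.1% to 71.0% were well above background on 5 arrays and 63.1% on FoxO1 +/- replicate 3. The flag "well above background" is set by the scanner software for a spot clearly brighter than its surroundings. All arrays shared 1 slide. FoxO1 +/- replicate 1 lay in slide row 1 together with all 3 WT arrays, whereas FoxO1 +/- replicates 2 and 3 lay in row 2. Levels below are log2 signals relative to the 75th percentile of the same array, and since probes bind with different strength, the level of one probe is not compared with that of another. Foxo1 itself, on the probe A_52_P453884, was at 1.31, 1.04 and 1.51 in WT wounds and at 0.38, 0.50 and 0.30 in FoxO1 +/- wounds. The genotypes did not overlap there, and FoxO1 +/- was lower by a log2 value of -0.89 (SE 0.14), at a limma adjusted p of 0.187 over all kept probes. On its other probe, which is brighter and stands for the gene in the test over genes, the difference was -0.48 (SE 0.15). The limma adjusted p there was 0.548 over all kept probes and 0.649 over genes. Whether either probe falls inside the removed sequence is not stated in the labels, so their level alone cannot settle the genotype. Of 16 keratinocyte markers, 15 were on the array and all 15 were well above background on every array.

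Some promoters of the family share sequence. RefSeq promoter windows of the assembly GRCm38.p6 were at hand for 29 of the 42 genes, and the 250 bases before the start of transcription were compared. Defb3, Defb5, Defb6, Defb7, Defb8 and Defb46, neighbours on chromosome 8, share an unbroken run of 17 bases, TAAGGCACTGAGCTCAA, and of 32851 mouse promoter windows these 6 were the only ones that held it on either strand. The 120 bases before each start are shown because these related promoters belong to genes that were detected on different numbers of arrays. Capitals mark the shared run.
Defb6, chr8:19225358-19225477, strand +: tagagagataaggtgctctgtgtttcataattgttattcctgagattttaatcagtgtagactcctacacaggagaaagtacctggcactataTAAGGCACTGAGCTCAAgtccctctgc
Defb8, chr8:19447607-19447726, strand -: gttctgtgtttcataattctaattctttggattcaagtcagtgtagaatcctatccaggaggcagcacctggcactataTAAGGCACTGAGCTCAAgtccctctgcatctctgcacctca
Defb7, chr8:19494977-19495096, strand +: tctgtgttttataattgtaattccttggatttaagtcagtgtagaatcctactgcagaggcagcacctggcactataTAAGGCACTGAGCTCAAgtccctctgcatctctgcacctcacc
Defb3, chr8:19293241-19293360, strand +: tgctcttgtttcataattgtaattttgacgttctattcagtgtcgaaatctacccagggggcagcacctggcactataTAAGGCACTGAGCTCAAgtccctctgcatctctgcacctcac
Defb46, chr8:19239796-19239915, strand +: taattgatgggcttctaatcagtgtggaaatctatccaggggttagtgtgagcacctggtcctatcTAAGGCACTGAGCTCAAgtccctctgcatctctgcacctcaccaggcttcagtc
Defb5, chr8:19247472-19247591, strand +: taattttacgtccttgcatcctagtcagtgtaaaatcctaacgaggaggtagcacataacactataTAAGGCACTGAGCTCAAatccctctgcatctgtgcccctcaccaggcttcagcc
Over the whole window of 250 bases, the 15 pairs within this group had 72.6% to 89.4% identical bases among those aligned, with a median of 81.7%. The 253 pairs of members outside the group had 49.5% to 84.6% identical bases, with a median of 60.3%, so that the ranges overlapped. In wounds, Defb6, Defb8, Defb7 and Defb3 were well above background on all 6 arrays, Defb46 on 4 and Defb5 on none. Counted back from the annotated start, the shared run begins at position -27 in Defb6, between -43 and -41 in Defb3, Defb7 and Defb8, and at -54 in Defb5 and Defb46. The group was set after the sequences were compared, so it is a description.

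Of the 42 genes, 13 had a probe well above background on all 6 arrays, 13 on some arrays and 16 on none. The first set was Defb1, Defb3, Defb6, Defb7, Defb8, Defb11 and Defb14 on chromosome 8, Defb22, Defb25, Defb28, Defb36 and Defb45 on chromosome 2, and Defb42 on chromosome 14. Counted per array, 23, 21 and 22 of the 46 probes were well above background in WT wounds and 20, 24 and 16 in FoxO1 +/- wounds. FoxO1 +/- replicate 3, with the fewest, was also the array with the fewest probes above background over the whole array. Per gene the counts were 21, 19 and 20 in WT and 18, 22 and 14 in FoxO1 +/- wounds. The genes never well above background were Defb5, Defb9, Defb10, Defb12, Defb13, Defb18, Defb19, Defb20, Defb21, Defb30, Defb35, Defb37, Defb39, Defb43, Defb47 and Defb50. On chromosome 14, Defb42 stood apart from its neighbours Defb30, Defb43 and Defb47, which were well above background on no array, and Defb48, which was on 4. The looser flag of a signal significantly above background was met by 34, 36 and 36 member probes in WT and 33, 33 and 29 in FoxO1 +/- wounds.

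**Figure D1:**
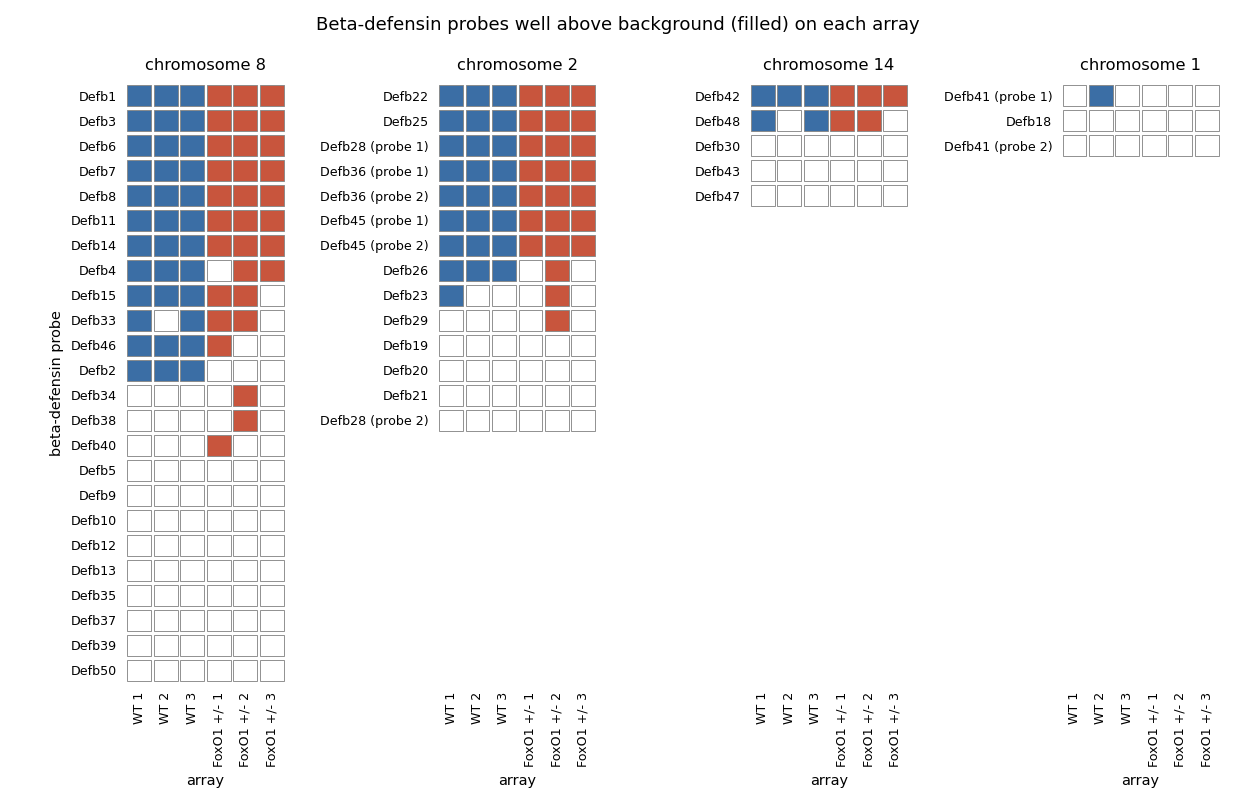
Detection of the 46 beta-defensin probes. Each row is a probe, named by its gene and grouped by chromosome, each column is an array (replicates 1 to 3 of WT in blue and of FoxO1 +/- in red), and a filled box means well above background. The 13 genes filled on all 6 arrays head the chromosome 8, 2 and 14 panels, and 16 genes have no filled box.

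Of the members best known from skin, Defb14, Defb1 and Defb6 were strongly detected and did not part by genotype. Defb14, the mouse counterpart of human beta-defensin 3 and induced in injured epidermis, had processed signals of 12990, 14241 and 11178 in WT and 11756, 9199 and 16442 in FoxO1 +/- wounds. Its level was 3.47, 3.63 and 3.10 in WT and 3.43, 3.04 and 4.19 in FoxO1 +/- wounds. The highest and the lowest value were both from FoxO1 +/- arrays, and the genotypes overlapped. The log2 difference, FoxO1 +/- minus WT throughout, was 0.15 (SE 0.31, 95% interval -0.60 to 0.90, limma adjusted p 0.991 over 16408 genes). Without FoxO1 +/- replicate 3 it was -0.17.

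Defb1, a member that epithelia make without induction, had levels of 2.15, 1.68 and 1.59 in WT and 1.81, 1.59 and 2.30 in FoxO1 +/- wounds. Here too the genotypes overlapped over their full range, with a difference of 0.10 (SE 0.23, 95% interval -0.46 to 0.66, limma adjusted p 0.991). Without FoxO1 +/- replicate 3 the difference was -0.10. Defb6, known from keratinised epithelia, had processed signals of 32343, 14314 and 38138 in WT and 19740, 17793 and 12503 in FoxO1 +/- wounds. Its levels were 4.78, 3.64 and 4.87 in WT and 4.17, 3.99 and 3.80 in FoxO1 +/- wounds. WT replicates 1 and 3 were above every FoxO1 +/- array and WT replicate 2 was below every one. The difference was -0.44 (SE 0.34, 95% interval -1.27 to 0.38, limma adjusted p 0.909). Without WT replicate 2 it was -0.84, and without WT replicate 3 it was -0.22.

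The inducible members Defb3 and Defb4, often set beside human beta-defensin 2, were much closer to background. Defb3 had processed signals of 58.0, 59.8 and 45.7 in WT and 49.5, 84.5 and 78.1 in FoxO1 +/- wounds. Its levels were -4.34, -4.27 and -4.83 against -4.47, -3.73 and -3.53, so that FoxO1 +/- replicates 2 and 3 were above all WT arrays and replicate 1 was among them. The difference was 0.57 (SE 0.28, limma adjusted p 0.830). It was 0.014 in a fit blocked by slide row and within row 1, where FoxO1 +/- replicate 1 alone stands against the 3 WT arrays and is assumed to vary like them.
Defb4 had processed signals of 204.5, 80.1 and 57.1 in WT and 5.1, 60.8 and 127.3 in FoxO1 +/- wounds. Of the 6 arrays, FoxO1 +/- replicate 1 was the one on which it was not well above background. The spread within a genotype was wide, as the WT level was -3.63 ± 1.01 (SD, n = 3) and the FoxO1 +/- level -4.92 ± 2.53 (SD, n = 3). The difference of -1.29 (SE 1.28, limma adjusted p 0.946) had a 95% interval of -4.41 to 1.82. It takes in the value of FoxO1 +/- replicate 1, which was not well above background, and without that array it was 0.11.

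**Figure D2:**
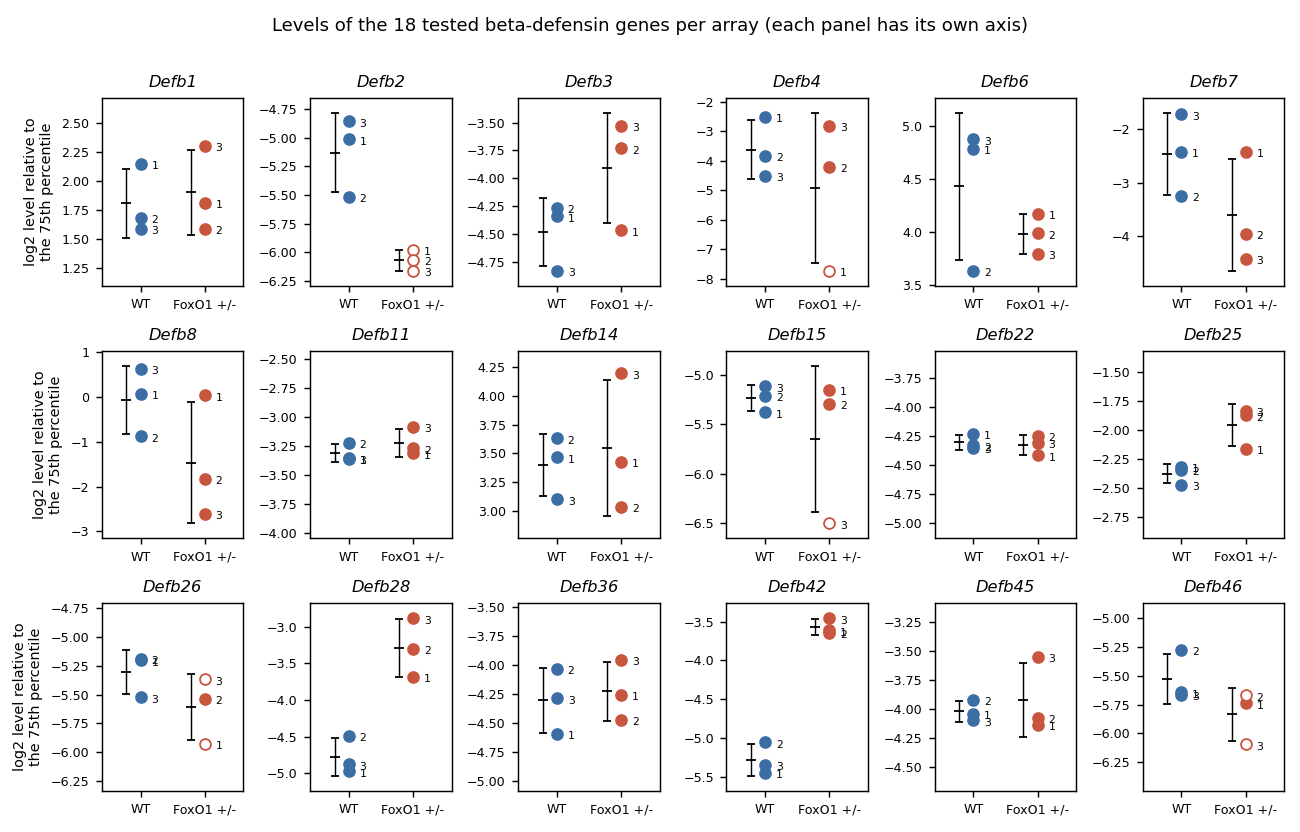
Levels of the 18 beta-defensin genes that were tested, 1 panel per gene with its own axis. The vertical axis is the log2 level relative to the array's 75th percentile, points are single arrays numbered by replicate, open points were not well above background, and bars are the mean and SD of 3 arrays. Defb42, Defb28 and Defb25 have all FoxO1 +/- points above all WT points, and Defb2 and Defb46 have them below.

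Defb8 and Defb7, neighbours of the shared promoter group, varied most between animals among the members well above background on all 6 arrays, and they did so in the same order. Defb8, listed in the reference table with the older name Defr1, had processed signals of 1238, 628 and 2016 in WT and 1123, 317 and 148 in FoxO1 +/- wounds. Its levels were 0.08, -0.87 and 0.63 in WT and 0.04, -1.82 and -2.61 in FoxO1 +/- wounds. FoxO1 +/- replicates 2 and 3 were below every WT array, whereas replicate 1 was among them. Defb7 had processed signals of 219.5, 121.5 and 397.0 in WT and 204.0, 71.7 and 41.7 in FoxO1 +/- wounds. Its levels were -2.42, -3.24 and -1.71 against -2.42, -3.97 and -4.43, in which the arrays took the same order as for Defb8. The difference was -1.41 (SE 0.73, limma adjusted p 0.842) for Defb8 and -1.15 (SE 0.61, limma adjusted p 0.846) for Defb7. Both differences were near 0 within slide row 1 and in a fit blocked by row, at 0.093 for Defb8 and 0.036 for Defb7. Row 2 held no WT array, so outside row 1 genotype and row cannot be told apart. Without FoxO1 +/- replicate 1 the differences were -2.16 for Defb8 and -1.74 for Defb7, and without replicate 3 they were -0.84 and -0.74.

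Across the 6 arrays the levels of Defb7 and Defb8 had a Pearson correlation of 0.993 and a Spearman correlation of 1. Among Defb3, Defb6, Defb7 and Defb8, 6 pairs were examined. Adjusted over them by Benjamini-Hochberg, the two-sided exact permutation p was 0.00556 for Pearson's r (0.00139 unadjusted, the smallest that 6 arrays allow) and 0.0167 for Spearman's rho (0.00278 unadjusted). Over the 4 arrays of slide row 1, which leaves out the pair farthest from the median, r was 0.993. Defb3 ran the other way. Its Pearson correlation with Defb8 was -0.974 (exact permutation p 0.00278, adjusted 0.00556), its Spearman correlation was -0.943 (exact permutation p 0.0167, adjusted 0.0333), and over the 4 arrays of row 1 Pearson's r was -0.848. The promoters of Defb3 and Defb8 were 89.4% identical over 246 aligned bases, the highest value in the group, and those of Defb7 and Defb8 82.3% identical over 231. With Defb6, Defb8 had a Pearson correlation of 0.759 (exact permutation p 0.0931, adjusted 0.112), and of 0.428 without WT replicates 1 and 3. Those arrays were farthest from the median of Defb6, whereas the pairs above left out the arrays of row 2. The values after leaving out arrays are therefore not comparable between these pairs. Probe sequences were not used here, and whether probes of these close relatives bind each other's transcripts was not tested. Pairs were chosen with the levels known, and the adjustment covers only those examined. The permutation treats all 6 arrays as exchangeable, although FoxO1 +/- replicates 2 and 3, alone in row 2, had the extreme levels of Defb3, Defb7 and Defb8. By these p-values, a relation between the genes and a shift shared with genotype or row cannot be told apart.

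**Figure D3:**
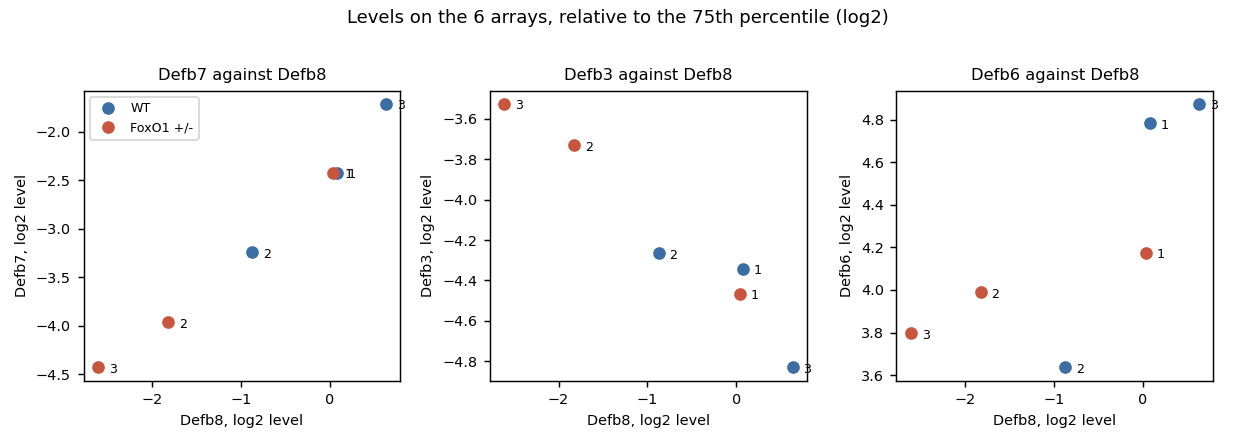
Levels of Defb7, Defb3 and Defb6 against Defb8 on the 6 arrays, all as log2 relative to the array's 75th percentile. Blue points are WT, red points are FoxO1 +/- and numbers are replicates. Defb7 rises with Defb8 across all points (r = 0.993), Defb3 runs the other way (r = -0.974), and WT replicate 2 stands off the trend for Defb6.

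Beside Defb7 and Defb8, the mean level of 10 sebaceous gland markers was 2.56, 2.16 and 2.76 for the WT replicates against 2.01, 2.08 and 1.96 for the FoxO1 +/- replicates. The genotypes did not overlap, and all 10 markers were well above background throughout. None passed a limma adjusted p of 0.05, and 7 were lower and 3 higher. Of the 7, 3 had an unadjusted p under 0.05 (2.81% of all 16408 genes were so called lower). These were Elovl3 (-1.41, SE 0.27), Krt79 (-1.38, SE 0.28) and Fa2h (-1.23, SE 0.31), whereas Scd1 (-0.02) and Mc5r (-0.05) lay near 0. Dgat2 went the other way (0.30, SE 0.14), with all FoxO1 +/- arrays above all WT arrays. The median over the list was -0.10, beside 0.012 over all 16408 genes. The mean of 15 keratinocyte markers was 5.69, 5.40 and 5.42 in WT and 5.42, 5.15 and 5.63 in FoxO1 +/- wounds, where the genotypes overlapped. Its smallest p-values were those of Ivl (0.38, SE 0.14), Krt17 (-0.61, SE 0.27) and Krt15 (-0.77, SE 0.45), and none passed. The part of either list in the defensin levels was not tested.

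The gene of the family with the smallest p-value was Defb42, which is known from the epididymis and was dim in wounds. Its processed signals were 26.8, 34.6 and 32.0 in WT and 89.4, 89.7 and 82.2 in FoxO1 +/- wounds, all 6 well above background. The levels were -5.45, -5.06 and -5.35 against -3.61, -3.64 and -3.45. Each FoxO1 +/- array was above each WT array, and the gap between genotypes was wider than the range within either one. The difference was 1.72 (SE 0.12, 95% interval 1.41 to 2.02), a level 3.28 times that of WT. The limma adjusted p was 0.0623 over 16408 genes, where 1 gene (0.00609%) passed 0.05, and 0.0350 over 37898 kept probes, where 10 probes (0.0264%) passed. Defb42 thus passed 0.05 over probes and did not over genes. The call over probes was lost when any single array other than WT replicate 2 was left out, with normexp background correction and with slide row as a block. Within slide row 1 the difference was 1.67, and over fits that left out single arrays it ran from 1.63 to 1.83. With normexp, whose offset of 50 by itself shrinks differences of dim probes, it was 0.94 (limma adjusted p 0.106). The promoter of Defb42 is shown, as that of the member with the smallest p-value.
Defb42, chr14:63046741-63046990, strand +: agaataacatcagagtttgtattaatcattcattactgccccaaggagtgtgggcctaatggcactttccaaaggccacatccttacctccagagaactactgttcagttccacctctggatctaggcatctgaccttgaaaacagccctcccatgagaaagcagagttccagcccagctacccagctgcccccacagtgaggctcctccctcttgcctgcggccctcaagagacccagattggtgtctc
It holds none of the 4 motifs searched in the 250 bases before the start, on either strand. These were GTAAACA for FoxO factors, TGANTCA for AP-1, the NF-kB motif and TATAAA. The FoxO motif was in none of the 29 members' windows and in 3.17% of all 32851 windows. Windows of Defb1, Defb4 and Defb14 were among those not at hand, so their promoters were not searched. AP-1 was in those of Defb11 and Defb26 (6.75% of all windows), NF-kB in those of Defb6 and Defb28 (7.25%), and TATAAA in those of Defb7, Defb15, Defb23, Defb30 and Defb48 (12.4%). The promoters of Defb3, Defb5, Defb6, Defb7 and Defb8 shown above read TATATAAG where the shared run begins, which the search for TATAAA does not count. A match describes letters only.

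Defb28 on chromosome 2 came next. On its brighter probe the processed signals were 37.4, 51.2 and 44.2 in WT and 85.3, 113.6 and 121.9 in FoxO1 +/- wounds, and the levels were -4.97, -4.49 and -4.88 against -3.68, -3.30 and -2.88. All FoxO1 +/- arrays were above all WT arrays. The difference was 1.49 (SE 0.23, 95% interval 0.93 to 2.05, limma adjusted p 0.316), and 0.90 with normexp. The other Defb28 probe was well above background on no array, with processed signals of 3.8 to 7.6, and so did not report on this difference. Both probes are assigned to the same transcript, and whether the dim signal of the brighter one comes from Defb28 was not tested. In its promoter, shown for the genotype difference, capitals mark the NF-kB match, which reads on the opposite strand.
Defb28, chr2:152518005-152518254, strand +: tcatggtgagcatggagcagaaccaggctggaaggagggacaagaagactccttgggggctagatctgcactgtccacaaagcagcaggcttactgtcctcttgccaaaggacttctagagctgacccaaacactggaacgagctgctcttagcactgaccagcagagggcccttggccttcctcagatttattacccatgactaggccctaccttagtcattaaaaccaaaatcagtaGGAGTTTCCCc
Defb25, also on chromosome 2, had levels of -2.31, -2.34 and -2.47 in WT and -2.16, -1.87 and -1.83 in FoxO1 +/- wounds. The genotypes did not overlap, with a difference of 0.42 (SE 0.11, 95% interval 0.15 to 0.69, limma adjusted p 0.582). It was 0.22 within slide row 1 and in a fit blocked by row.

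Defb2 differed in detection. It was well above background on all 3 WT arrays, with processed signals of 36.3, 25.1 and 44.9, and on no FoxO1 +/- array, where signals were 17.3, 16.7 and 12.6. Only a bound can be given for such a probe, and it was at least 1.35-fold lower in FoxO1 +/- wounds. The limma adjusted p of 0.371 belongs to the fitted difference of -0.94, which takes in the FoxO1 +/- values not well above background. On FoxO1 +/- replicate 3 the lowest level well above background was -5.04. The Defb2 level of WT replicate 2, at -5.52, was below that, so missing detection on replicate 3 says little. Without WT replicate 2 the limma adjusted p was 0.0437, and with normexp it was 0.972. Defb46 was well above background on 3 WT arrays and 1 FoxO1 +/- array, with levels of -5.65, -5.28 and -5.66 against -5.74, -5.67 and -6.09. The genotypes did not overlap, but the nearest WT and FoxO1 +/- values were -5.66 and -5.67 (difference -0.31, SE 0.16, limma adjusted p 0.842). Defb15 and Defb26 were on all WT arrays and on 2 and 1 FoxO1 +/- arrays, with differences of -0.41 (SE 0.36) and -0.31 (SE 0.17) and overlapping genotypes. Outside the tested set, Defb29, Defb38 and Defb40 were well above background on no WT array and on 1 FoxO1 +/- array each, so that no fold is given. For Defb38 the processed signals were 4.9, 4.6 and 8.0 in WT and 18.8, 23.7 and 12.5 in FoxO1 +/- wounds, all but 1 of them not well above background. Defb34 was likewise on 1 FoxO1 +/- array, and Defb23, Defb33, Defb41 and Defb48 were on 1 to 4 arrays.

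Defb11, Defb22, Defb36 and Defb45 had signals well above background throughout and lay near the same level in both genotypes. Defb22, an epididymal peptide of the sperm coat, had levels of -4.23, -4.33 and -4.35 in WT and -4.41, -4.25 and -4.31 in FoxO1 +/- wounds, a difference of -0.02 (SE 0.08, 95% interval -0.21 to 0.17). Defb11 differed by 0.09 (SE 0.09, 95% interval -0.13 to 0.31). For Defb36 the difference was 0.08 (SE 0.19) on one probe and 0.34 on the other, and for Defb45 it was 0.10 (SE 0.17) and -0.09. The genotypes overlapped on each of these probes, and the sign for Defb45 thus differed between its probes.

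**Figure D4:**
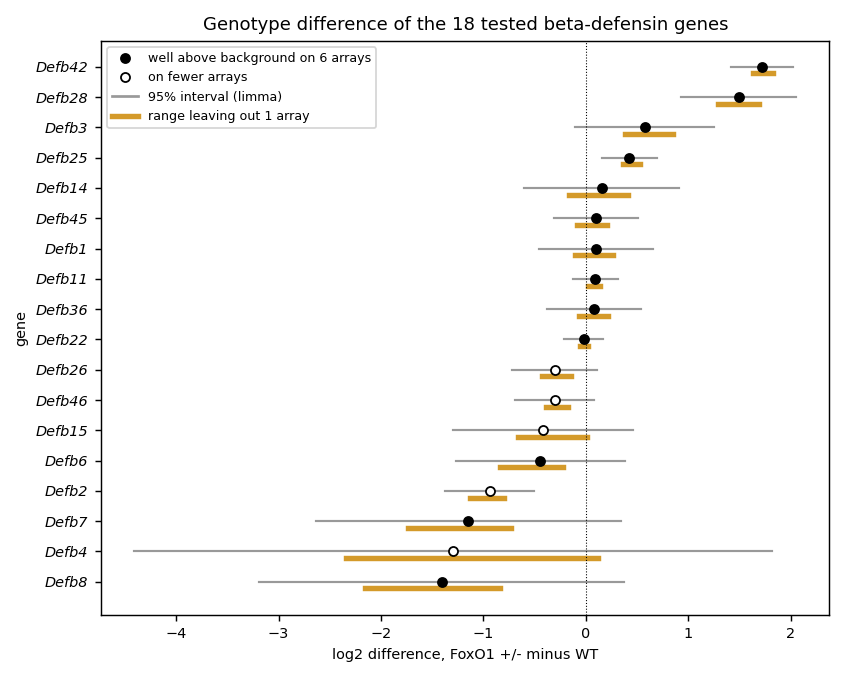
Log2 difference between genotypes (FoxO1 +/- minus WT) for the 18 tested beta-defensin genes. Points are the limma estimates (open where the gene was not well above background on all 6 arrays), grey lines are 95% intervals and orange bars span the values when single arrays were left out. Defb42 and Defb28 lie farthest to the right, at 1.72 and 1.49, and the wide lines of Defb4, Defb8 and Defb7 cross 0.

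Over the family, 18 genes entered the test, 13 of them well above background on all 6 arrays and 5 only through the WT arrays. Of the 18, 0 passed a limma adjusted p of 0.05 over genes (background 0.00609%), 9 had higher and 9 lower values in FoxO1 +/- wounds, and 4 had an unadjusted p under 0.05 (background 6.29%), 3 of them higher (background 3.48%) and 1, Defb2, lower (background 2.81%). The genotypes did not overlap for 5 of the 18 (background 11.5%), 3 higher (background 7%) and 2 lower (background 4.55%). The 5 that entered on WT detection alone all had lower values and support nothing about the family, so the count over the other 13 is given too. Of these 13, 9 were higher and 4 lower, where 53.9% of all 16408 genes were higher, and 3 (Defb25, Defb28 and Defb42) had an unadjusted limma p under 0.05, or 23.1% against 5.93% of the 15645 genes well above background on all 6 arrays. With slide row as a block, the unadjusted limma p of Defb25 was 0.124, and that call was lost. The same 3 had non-overlapping genotypes, against 11.4% of those genes. The median difference of the 13 was 0.097, beside 0.015 over the 15645 genes, and no test was made of these shares. The exact two-sided permutation p of 3 arrays against 3 cannot go below 0.1, and it was 0.1 for each of Defb2, Defb25, Defb28, Defb42 and Defb46.

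Among other antimicrobial proteins of skin and neutrophils, 20 of 21 listed genes were measured, all well above background on all 6 arrays. None passed the limma adjusted p of 0.05 in either direction, and 2, both higher, had an unadjusted p under 0.05 (3.48% of all genes were so called higher). The median difference was 0.10 beside 0.012 over all 16408 genes. Camp, the cathelicidin of neutrophils, differed by 0.70 (SE 0.25, limma adjusted p 0.772), Lyz2 by 0.25 (SE 0.10) and Ngp by 0.64 (SE 0.43). The mean of 12 neutrophil markers ran from 0.84 to 1.94 in WT and from 1.43 to 1.71 in FoxO1 +/- wounds, where the genotypes overlapped. Beside Camp, its smallest p-values were those of Mpo (0.64, SE 0.31) and Cd177 (-1.1, SE 0.68).

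Of 34 listed inducers of beta-defensins and their receptors, 29 were tested. None passed the limma adjusted p of 0.05, and 4 had an unadjusted p under 0.05 (background 6.29%), 2 higher (background 3.48%) and 2 lower (background 2.81%), with a median of 0.04. They were Il17f (0.58, SE 0.17), a cytokine that induces beta-defensins in keratinocytes, Il17re (-0.69, SE 0.20), a subunit of the receptor for interleukin-17C, Vdr (-0.82, SE 0.28), the vitamin D receptor, and Tlr2 (0.40, SE 0.15), a receptor for bacterial lipopeptides. Their limma adjusted p-values ran from 0.648 to 0.781. Il17a was well above background on no array, whereas Il22 was on all 6. Of 11 listed receptors and partners of beta-defensins 10 were tested and none passed, with Tlr2, Ly96 (0.18, SE 0.08) and Ccr2 (-0.13, SE 0.13) having the smallest p-values and a median of 0.11. Ccr6, the chemokine receptor that several beta-defensins use, was well above background on all 6 arrays, and Ccl20, its chemokine ligand, on none.

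Because many members are known from the male tract, its markers were read as well. Of 23 epididymis markers on the array, 13 were well above background on no array, among them Lcn5, Lcn8, Adam7, Crisp1, Rnase9 and Eppin, and 6 were on all arrays, namely Clu, Teddm1a, Lcn6, Rnase10, Lcn10 and Lcn12. The mean of the 10 tested was -2.27, -1.93 and -2.26 in WT and -2.35, -2.40 and -2.54 in FoxO1 +/- wounds. This mean was lower on every FoxO1 +/- array, with 7 markers lower and 3 higher. It takes in Cst8, Cst11, Rnase13 and Wfdc10, which were well above background on at most 5 arrays and so entered through 1 genotype. Wfdc10 was at -0.75 on WT replicate 2 and between -5.41 and -3.69 on the other arrays. The mean is therefore not read as a shift of the list, and its part in the defensin values was not tested. The smallest p-values among the 10 tested belonged to Rnase13 (-0.31, SE 0.14), Clu (-0.40, SE 0.21) and Wfdc10 (-1.82, SE 0.95), with limma adjusted p-values of 0.823 to 0.843. Of 10 testis and germ cell markers 6 were tested, with a median of 0.04, and Akap4 (-0.41, SE 0.14), Sycp3 (0.27, SE 0.21) and Ddx4 (0.31, SE 0.29) had the smallest p-values. Akap4 was well above background on at most 4 arrays, so its difference takes in values that were not. The mean of 10 macrophage markers was 4.28, 4.13 and 4.21 in WT and 4.42, 4.46 and 4.33 in FoxO1 +/- wounds, higher on every FoxO1 +/- array. Ms4a7 (0.36, SE 0.13), Lyz2 and C1qb (0.14, SE 0.07) had its smallest p-values, none passed, and its part in the defensin values was not tested.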

How the data were processed

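Per the labels' protocols, 200 ng of RNA from each day 3 wound sample was labelled with Cy3 and hybridised to 1 of 6 Agilent arrays. The authors' deposited files give spot intensity on a linear scale, extracted with Agilent Feature Extraction 10.7.1.1 per the file headers, although version 9.1 stands in the submitters' processing notes. This signal is background-subtracted and detrended within an array and not scaled between arrays, per the file headers. The deposited value table holds the same intensity rounded: on every array, all 59305 spots that are not controls lay within 0.6% of it.

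The signal was converted to log2, outlier-flagged spots were left out, spots of a probe were averaged, and each array's 75th percentile was subtracted. A total of 36 probes with a missing value were left out, and no spot was saturated. Accessions without versions were matched to a RefSeq table (GRCm38.p6), later than the array's mm9 annotation, so the table gave symbols and chromosomes only. A probe was kept if 1 or both genotypes had it well above background on all 3 arrays (37898 probes), and the brightest kept probe stood for a gene (16408 genes). FoxO1 +/- minus WT was tested with limma 3.58.1 in R 4.3.3 (lmFit, eBayes, two-sided), with Benjamini-Hochberg adjustment over all genes or kept probes. The number of arrays limits the precision. For a probe not well above background in one genotype, a bound was computed by raising each of its dim values to at least the lowest signal well above background on that array, then comparing the means.

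Members, gene lists and the rule for the genes named were chosen with earlier results of these data known. The rule takes every member well above background on all arrays of a genotype, Defb1, Defb3, Defb4, Defb6 and Defb14 in any case, and the 3 smallest p-values of a list. The normexp alternative used median spot and background signals, as chosen after seeing the files.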

Additional observations from a re-analysis of the deposited data

How the results depend on the processing

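In the setting reported, 1 gene, 0 beta-defensin genes and 1 beta-defensin probe (Defb42) passed a limma adjusted p of 0.05, and 4 beta-defensin genes had an unadjusted p under 0.05. The gene count was 0 with normexp, with the percentile over probes detected on 6 arrays, with only such probes, with the replicate block and with eBayes trend and robust options. It was 2 with quantile normalization, 5 with median scaling, 3 without a filter on dim probes, 7 with slide row as a block, 4 within slide row 1, and 0 to 30 when single arrays were left out, the highest without WT replicate 2. The count of beta-defensin genes was 1 (Defb42) with quantile normalization (adjusted p 0.0268) and median scaling (0.0209), 0 to 2 when single arrays were left out (Defb42, at 0.0125, and Defb2, both without WT replicate 2), and 0 in the other settings. Over all 19 alternatives the adjusted p of Defb42 ran from 0.0125 to 0.939 and its difference from 0.94 to 1.83. The beta-defensin probe count was 0 with normexp, without a dim filter, with the replicate block, with slide row as a block, within row 1 and with trend and robust options, and 0 to 2 when single arrays were left out. The count at an unadjusted p was 7 of 42 genes without a dim filter and 4 to 7 when single arrays were left out, the highest without FoxO1 +/- replicate 1. Signs turned with slide row as a block and within row 1 for Defb7 (0.036), Defb8 (0.093), Defb11 (-0.00018), Defb15 (0.083) and Defb45 (-0.12), and with normexp for Defb15 (0.11), Defb22 (0.15), Defb26 (0.11) and Defb46 (0.050). The cause was not tested. Leaving out single arrays gave -0.10 to 0.27 for Defb1, -2.34 to 0.11 for Defb4, -0.17 to 0.41 for Defb14, -0.66 to 0.014 for Defb15, -0.060 to 0.024 for Defb22, -0.069 to 0.21 for Defb36 and -0.088 to 0.20 for Defb45. Defb2, Defb3, Defb6, Defb25, Defb28 and Defb42 kept their sign in every alternative run. Arrays share animal numbers across genotypes, but deviations of same-numbered arrays had correlations of -0.068, -0.14 and -0.30, and no array correlated best with its own number, so the numbers were not taken as pairs; with the replicate block 4 beta-defensin genes had an unadjusted p under 0.05. Members by a gene name column were not run, since the files used have no such column. Of the 18 tested genes, Defb2, Defb4, Defb15, Defb26 and Defb46 had signals not well above background on 1 or more arrays.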
